A study of Mus musculus with 12 samples.

Results

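Chemokines and their receptors were examined in dorsal root ganglia, taking every protein-coding gene of the count table whose symbol names a chemokine of the Ccl, Cxcl, Cx3c or Xcl families or a receptor of the Ccr, Cxcr, Cx3cr, Xcr or Ackr families. The rule gave 66 genes with 60 symbols among the 54532 genes listed, 44 ligands and 22 receptors, and 7 of them lie on unplaced scaffolds. The study compared 6 control with 6 DAAO libraries of total RNA from ganglia of C57BL/6 mice. The control group carries the genotype CDH5-Cre, a recombinase driven by the VE-cadherin promoter of endothelium. The DAAO group carries the genotype DAAO-TGCdh5, named for D-amino acid oxidase, an enzyme that makes hydrogen peroxide from D-alanine. Mice of both groups received D-alanine, and Cre is named for the DAAO group only in its sample names. The sources used here give no age and do not say that each library is a separate animal, so each p-value speaks for the spread among these samples alone.

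Chemokines are small secreted proteins that guide leukocytes along gradients through receptors coupled to Gi proteins. They are grouped as CC, CXC, CX3C and XC by the spacing of their first cysteines. Atypical receptors bind the same ligands without signalling through G proteins, and they clear or carry them. In the ganglion, ligands such as Ccl2 and Cx3cl1 are made by neurons, glia, fibroblasts and endothelium. Many of the receptors are expressed by resident and infiltrating macrophages and other leukocytes. Ligands of one receptor are often neighbours in the genome, and several are induced by NF-kB and by interferon.

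Promoters of 3 ligands on which the results below turn are printed first. Cxcl10 was the tested gene of the family with the smallest p-value, Cxcl9 is its neighbour on chromosome 5 and a ligand of the same receptor, and Ccl3 was at 0 counts in 5 of 6 control libraries. Each runs from 250 bases before the gene's start to 50 bases after it, 5′ to 3′ on the gene's strand, from RefSeq on build GRCm38. All 3 genes are on the minus strand, at chr5:92348840-92349139 for Cxcl10, chr5:92328030-92328329 for Cxcl9 and chr11:83649329-83649628 for Ccl3. Capitals mark matches, on either strand, to GGGANNTNC (NF-kB), GAAANNGAA (interferon-stimulated response element) and TGANTCA (AP-1).
Cxcl10: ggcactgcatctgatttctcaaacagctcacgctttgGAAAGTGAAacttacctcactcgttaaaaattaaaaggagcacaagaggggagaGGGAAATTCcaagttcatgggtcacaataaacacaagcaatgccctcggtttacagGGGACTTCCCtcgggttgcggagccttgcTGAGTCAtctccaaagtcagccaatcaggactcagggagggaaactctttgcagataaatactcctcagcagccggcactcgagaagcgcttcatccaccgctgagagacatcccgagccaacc
Cxcl9: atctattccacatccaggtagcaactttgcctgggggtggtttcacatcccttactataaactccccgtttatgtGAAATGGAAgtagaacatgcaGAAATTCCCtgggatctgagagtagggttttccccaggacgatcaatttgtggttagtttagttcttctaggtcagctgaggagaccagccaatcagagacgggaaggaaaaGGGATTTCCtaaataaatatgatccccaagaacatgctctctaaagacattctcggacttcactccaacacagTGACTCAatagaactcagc
Ccl3: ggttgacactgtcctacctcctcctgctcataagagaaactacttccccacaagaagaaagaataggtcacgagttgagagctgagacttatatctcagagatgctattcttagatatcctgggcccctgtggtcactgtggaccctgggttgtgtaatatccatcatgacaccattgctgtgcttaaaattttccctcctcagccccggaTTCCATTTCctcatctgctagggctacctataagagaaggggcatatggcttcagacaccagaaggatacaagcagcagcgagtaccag

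With the start base counted as 0, the Cxcl10 promoter holds the NF-kB letters from -159 to -151 and, as 2 overlapping matches on opposite strands, from -103 to -95 and from -102 to -94. Its interferon element match lies from -213 to -205 and its AP-1 match from -74 to -68. The Cxcl9 promoter holds NF-kB letters from -154 to -146 and from -42 to -34, an interferon element match from -175 to -167 and AP-1 letters after the start, from 31 to 37. In the Ccl3 window the letters of the interferon element were found from -39 to -31. Of the 60 symbols, 45 had a promoter in the table, and they gave 52 windows of 300 bases. The NF-kB letters were in 12 of these 52 windows, or 23.1%, against 15.1% of all 32851 promoters. The interferon element was in 8, or 15.4%, against 8.56%, and AP-1 in 9, or 17.3%, against 7.81%. Windows are not separate genes: Ccl27a and Ccl27b gave several each, and AP-1 letters were in windows of both, which adds to the AP-1 share. These are matches of letters, and no binding was measured here.

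Library totals ran from 13227518 to 23884927 counts. Sensory neuron markers stood high in every library, with sums of 9530 to 18919 CPM (counts scaled to the library's TMM-adjusted total), and none of the 13 was at 0. Controls 2 and 6 had the highest mitochondrial shares of counts (7.44% and 7.65%). Markers of macrophages, which express many chemokines and receptors themselves, summed to between 113 and 589 CPM in controls and between 440 and 1943 CPM in DAAO libraries. In that list 13 of 14 markers were tested, 9 had a positive and 4 a negative difference, and the median log2 fold change was 0.92. At an unadjusted p under 0.05 in edgeR there were 8, among them Cd163 with a negative difference, against 10.3% of all genes tested. Of the 13, 1 passed, against 0.506% of all genes tested called higher in DAAO. It was Lyz2, the lysozyme of myeloid cells, which rose from 113 ± 60.3 to 623 ± 384 CPM (SD, n = 6 per group; edgeR adjusted p = 0.0450). In DAAO libraries, with a median sum of 995 CPM, the sum rests mainly on Lyz2. In controls, with a median sum of 312 CPM, Lyz2 was the smaller part, so the makeup of the sum differed between the groups. The other positive differences ran from 0.44 for Csf1r to 2.56 for Cd68 (log2 fold change, edgeR adjusted p = 0.841 and 0.0902). They included C1qc, C1qb and C1qa at 1.44, 1.21 and 1.25, and none of them passed. Cd163, a scavenger receptor, stood at 16.2 ± 10.5 and 8.19 ± 2.27 CPM (log2 fold change -0.98, edgeR adjusted p = 0.387), and Lyve1, Mertk and Mrc1 also had negative differences (-0.59, -0.19 and -0.16). The remaining marker, Marco, had 0 counts in controls and 1 in DAAO. The part of macrophage RNA in the values below was not tested. In bulk RNA, fewer cells of a type and less RNA per cell cannot be told apart.

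None of the chemokine or receptor genes passed the test in either direction. Of the 66 genes, 31 had enough counts to be tested, 21 ligands and 10 receptors. With edgeR's quasi-likelihood test and a threshold of 0.05 on the adjusted p, 0 of them were called higher and 0 lower, against 0.506% of all 17002 genes tested called higher in DAAO (86 genes) and 0.247% called lower (42 genes). At an unadjusted p under 0.05 there was 1 of the 31, Cxcl10, against 10.3% of all genes tested. There were 0 of the 31 in which the 2 groups of libraries were fully apart, against 1.45% of all genes tested. DESeq2 and limma-voom also called 0 of the 31. At an unadjusted p under 0.05 DESeq2 had 1, again Cxcl10, and limma-voom had 2, Ccl17 and Ccl5 but not Cxcl10.

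The 31 differences were mostly small and imprecise. The log2 fold change, DAAO minus control throughout, was positive in 23 (74.2%, against 50.4% of all genes tested) and negative in 8, and its median was 0.26 against 0.00 over all genes tested. The median was 0.04 without DAAO 3, over the 32 genes then tested, and 0.54 without control 2, over 33. It thus moved with single libraries, although the set of genes tested changed slightly too. The filter asked for 0.537 CPM in at least 6 libraries. In 5 of the 31, among them Ccl5, Ccl8, Ccl12 and Cxcl9, all 6 DAAO libraries but not all 6 controls reached it, and the reverse held in none. Ccl8, Ccl12 and Cxcl9 reached it in 5 controls and Ccl5 in 1. Passing through the DAAO libraries favours positive differences among the genes tested, which of the genes named here bears mainly on Ccl5. The difference of Ccl12 was negative. The 95% interval lay within a 2-fold change either way in 8 genes, and in the other 23 it reached 2-fold or more.

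**Figure D1:**
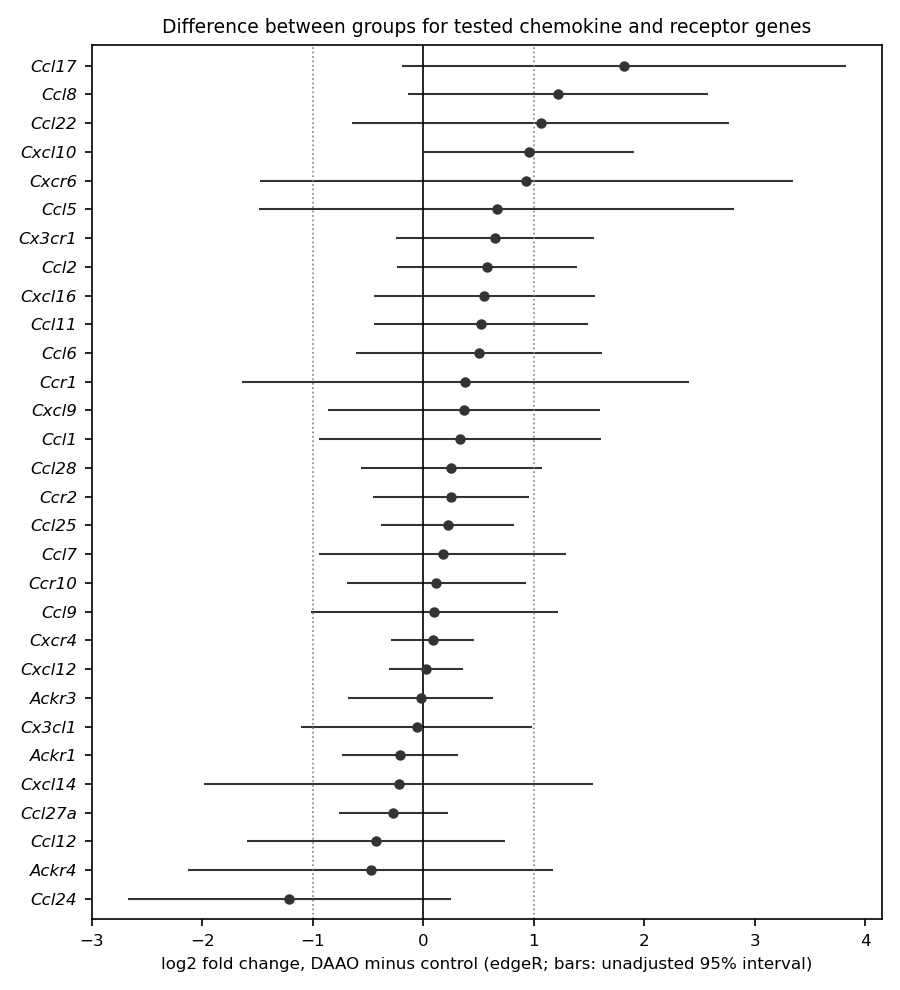
Log2 fold change (DAAO minus control, edgeR) of 30 of the 31 tested chemokine and receptor genes on the horizontal axis, 1 gene per line; points are estimates, bars unadjusted 95% intervals, and dotted lines mark a 2-fold change. The interval of Cxcl10 alone lies off 0, at its lower edge by 0.01, and Ccl17 (1.82) and Ccl24 (-1.21) are the extremes.

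CC ligands that draw monocytes and macrophages form the largest tested group. Of its 9 genes 7 were tested, 0 passed, and 6 of 7 differences were positive with a median log2 fold change of 0.50. Ccl2, which calls Ccr2-bearing monocytes out of the blood, stood at a lowest, median and highest of 1.97, 3.07 and 7.28 CPM in controls and 2.61, 4.57 and 10.5 CPM in DAAO. The ranges overlapped over most of their length, and 5 of 6 DAAO values exceeded the control median (log2 fold change 0.58 ± 0.39 SE, edgeR adjusted p = 0.668). Ccl8, a member of the same family that in mice also binds Ccr8, ran through 0.400, 1.49 and 4.26 CPM in controls and 0.708, 2.98 and 12.1 in DAAO. The highest value came from DAAO 3, and the difference of 1.22 ± 0.64 did not pass (edgeR adjusted p = 0.548). It was 0.51 without DAAO 3 and up to 1.70 with another single library left out. Its smallest adjusted p under any alternative was 0.227 (edgeR, without control 2).

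Ccl7 and Ccl12, further ligands of Ccr2, had differences of 0.18 ± 0.53 and -0.43 ± 0.55 (edgeR adjusted p = 0.963 and 0.883). The mean of Ccl12 was 1.97 ± 1.72 CPM in controls, where control 5 alone had 5.20, and 1.46 ± 0.526 in DAAO (SD, n = 6). Its difference was 0.14 without control 5. Ccl6 and Ccl9 encode rodent ligands of Ccr1. Ccl6 ran through 0.983, 4.44 and 12.4 CPM in controls and 3.66, 8.18 and 11.9 in DAAO. Ccl9 ran through 1.03, 9.30 and 14.5 CPM in controls and 4.46, 7.91 and 17.9 in DAAO. For both genes the lowest of the 12 libraries was control 4, which also had the lowest macrophage marker sum, 113 CPM. Their differences were 0.50 ± 0.52 and 0.10 ± 0.52 (edgeR adjusted p = 0.841 and 0.981).

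Ccl5, a chemokine made by T cells and macrophages, was unevenly counted in the controls. Control 3 held 86 of the 102 control counts, controls 1, 5 and 6 had 0, and all 6 DAAO libraries had between 16 and 36. In CPM the controls ran through 0, 0.164 and 4.29 and the DAAO libraries through 0.871, 1.34 and 2.02. The groups overlapped only through control 3. The difference was 0.66 ± 1.02 (edgeR adjusted p = 0.905) with all libraries and 2.95 without control 3 (unadjusted p = 0.00822, adjusted p = 0.286), so it did not pass either way. Markers of T and NK cells had 3 of 12 genes tested and 0 passed, and their sums ran from 3.60 to 8.43 CPM in controls and from 5.85 to 13.1 in DAAO. Their part in the Ccl5 values was not tested.

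Ccl3 and Ccl4, known as macrophage inflammatory proteins, had too few counts for the filter. They are described because of their counts, a choice made after their values were seen. Ccl3 (ENSMUSG00000000982) had 9 counts in control 2 and 0 in the other 5 controls, and 12, 28, 16, 6, 25 and 20 counts in DAAO 1 to 6. Every DAAO library had Ccl3 reads, and the groups overlapped through control 2, which at 0.485 CPM lay above DAAO 4 at 0.327. The ratio of mean CPM was 11.7 with all controls. Control 2 was the only control with Ccl3 reads. Without it, the DAAO mean of 0.949 CPM was 29-fold a floor of 3 counts over the other 5 controls together (0.0327 CPM). That floor covers counting error only, not the spread between libraries, so 29 is no lower bound on the difference. With no filter the fitted difference was 3.45 ± 1.24 (edgeR unadjusted p = 0.00770, adjusted p = 0.299 over 31995 genes), which did not pass. Without control 2 the controls held no Ccl3 read and the gene passed the filter through the DAAO libraries only. Its adjusted p was then 0.0157, and 0.0162 without controls 2 and 6. The fitted fold against counts of 0 is no bound and is not given, and since the gene was picked for these counts, that p is a description of them. Leaving out any other library in which Ccl3 stayed above the filter gave adjusted p-values from 0.240 to 0.361.

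Ccl4 had 15 counts in 2 controls and 74 counts in 6 DAAO libraries. Its difference with no filter was 2.27 ± 1.29 (edgeR adjusted p = 0.396), which did not pass. Ccl3, Ccl4, Ccl5, Ccl6 and Ccl9 are neighbours on chromosome 11 (83525778 to 83664683 on GRCm38). The 3 tested genes there had positive differences, and none passed.

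**Figure D2:**
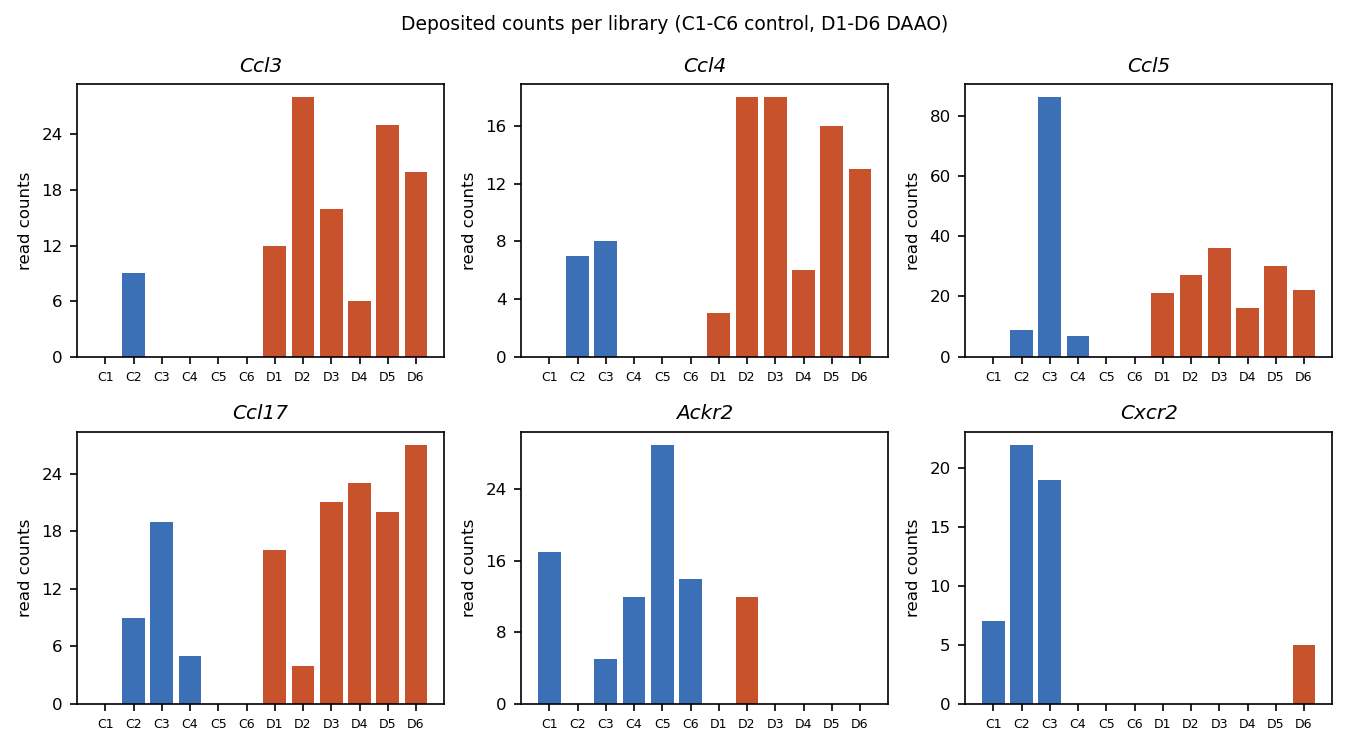
Deposited read counts (vertical axis, linear from 0) of 6 chemokine and receptor genes with low counts, 1 bar per library, for controls 1 to 6 and DAAO 1 to 6. Ccl3 has counts in 1 control and all 6 DAAO libraries, Ccl5 reaches 86 counts in control 3 alone, and Ackr2 has counts in 5 controls and 1 DAAO library.

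Among the CC ligands of eosinophil receptors, Ccl11 (ENSMUSG00000020676; chromosome 11, 82057823 to 82062955) encodes eotaxin, which acts on Ccr3. It had the second highest level per kilobase of the 31 genes, 23.1 ± 15.7 CPM per kb in controls and 33.3 ± 14.6 in DAAO (SD, n = 6). In CPM the controls ran through 7.63, 20.9 and 53.3 and the DAAO libraries through 17.1, 33.1 and 61.1. The control range spanned most of the DAAO range, and the log2 fold change of 0.52 ± 0.45 did not pass (edgeR adjusted p = 0.782). Ccl24, another eotaxin, had the lowest fold change of the 31: 0.328, 1.04 and 1.22 CPM in controls against 0.0421, 0.340 and 0.841 in DAAO. All 6 DAAO values were below the control median, with overlap only through control 4, and the difference of -1.21 ± 0.69 did not pass (edgeR adjusted p = 0.594). The receptor Ccr3 itself had 0 counts in controls and 4 in DAAO.

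CC ligands of lymphoid tissue and barriers had 6 of 18 genes tested and 0 passed, with 5 positive differences. Ccl27a (ENSMUSG00000073888; chromosome 4, 41769467 to 41774247), a skin chemokine that acts on Ccr10, came next in level per kilobase at 10.9 CPM per kb in controls and 9.0 in DAAO. Its CPM ran through 15.2, 22.2 and 47.3 in controls and 18.7, 21.3 and 25.3 in DAAO, so the DAAO values sat inside the control range (log2 fold change -0.27 ± 0.23, edgeR adjusted p = 0.786). Near-identical copies of the Ccl19, Ccl21 and Ccl27 genes exist, so these assignments are uncertain. The 11 copies not tested held 104 counts in all. Ccl28, the other Ccr10 ligand, and Ccl25, which acts on Ccr9, had differences of 0.26 ± 0.39 and 0.22 ± 0.29 (edgeR adjusted p = 0.905 and 0.883). Ccl1, a Ccr8 ligand, had 0.33 ± 0.61 (edgeR adjusted p = 0.929).

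Ccl17 and Ccl22 share the receptor Ccr4 and lie near Cx3cl1 on chromosome 8. Ccl17 had the highest fold change of the 31, from few reads: 33 counts in 3 controls and 111 counts in 6 DAAO libraries. Its CPM ran through 0, 0.117 and 0.949 in controls and 0.205, 1.10 and 1.64 in DAAO. All 6 DAAO values exceeded the control median, with overlap through controls 2, 3 and 4 and DAAO 2 and 5. The difference of 1.82 ± 0.95 did not pass (edgeR adjusted p = 0.542), and its 95% interval ran from -0.19 to 3.83. Without control 3 the difference was 2.70 (edgeR unadjusted p = 0.0211, adjusted p = 0.387). For Ccl22 the means were 0.426 ± 0.351 and 0.912 ± 0.587 CPM (SD, n = 6), a difference of 1.06 ± 0.81 (edgeR adjusted p = 0.727). Ccr4 had 8 counts in controls and 5 in DAAO.

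Cxcl10 and Cxcl9 are interferon-induced ligands of Cxcr3, which draws activated T cells. Cxcl10 (ENSMUSG00000034855; chromosome 5, 92346638 to 92348889) ran through 1.83, 4.39 and 7.21 CPM in controls and 3.21, 8.25 and 17.3 in DAAO. The ranges overlapped, 4 of 6 DAAO values exceeded the control median, and DAAO 1 was the highest. The log2 fold change was 0.96 ± 0.45 with an edgeR unadjusted p = 0.0484 and an adjusted p = 0.479 over all genes tested. Among the alternatives run, its adjusted p ranged from 0.297 to 0.808. Its unadjusted p was not under 0.05 with limma-voom, with or without sample weights, without the robust fit, or with a filter of CPM above 1 in 6 libraries. The same held in edgeR when control 1, 2 or 4 or DAAO 1, 2, 3 or 6 was left out. On the gene's opposite strand Art3 shares 133 of its 2252 exon bases and had 102 ± 31.4 CPM in controls and 81.0 ± 17.8 in DAAO, so without strand information part of the Cxcl10 reads could be Art3's.

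Cxcl9, with the interferon and NF-kB letters printed above, ran through 0.421, 2.11 and 10.5 CPM in controls and 2.87, 3.85 and 7.01 in DAAO. The DAAO values lay inside the control range, although all 6 were above the control median (0.37 ± 0.58, edgeR adjusted p = 0.908). The difference was 1.14 without control 5 (edgeR unadjusted p = 0.0363, adjusted p = 0.523) and 0.14 without control 4. Cxcr3 was not tested, with 20 counts in 3 controls and 54 in 5 DAAO libraries. The neutrophil-drawing ligands of Cxcr2 on chromosome 5 were near the limit of detection. Cxcl1 had 41 and 42 counts over the control and DAAO groups, Cxcl2 had 18 and 25, Cxcl5 had 5 and 28, and Cxcl3 had none. Cxcr2 had 48 counts in 3 controls and 5 counts in 1 DAAO library.

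Of the other CXC ligands, Cxcl16 and Cxcl12 had the highest levels per kilobase, at 4.73 and 4.60 CPM per kb over all libraries. Cxcl16 is a membrane-bound ligand of Cxcr6 that Adam10 sheds. Its CPM ran through 3.18, 9.46 and 22.2 in controls and 8.66, 16.8 and 30.4 in DAAO, with controls 2 and 3 inside the upper DAAO range (0.56 ± 0.46, edgeR adjusted p = 0.771). Zmynd15, on the opposite strand, shares 552 of its 3021 exon bases but had only 1.43 and 2.58 CPM. Cxcl12, the ligand of Cxcr4 and Ackr3, had the smallest SE of the 31, 0.16. It ran through 29.5, 38.7 and 43.7 CPM in controls and 26.8, 37.8 and 49.8 in DAAO. Its log2 fold change was 0.03 with a 95% interval from -0.31 to 0.37, which lies within a 2-fold change either way. Cxcl14 ran through 0.655, 4.02 and 28.8 CPM in controls and 2.02, 7.53 and 10.6 in DAAO. Its sign depended on control 2, with -0.22 ± 0.81 for all libraries and 0.80 without it.

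Cx3cl1 (ENSMUSG00000031778; chromosome 8, 94772009 to 94782427) encodes fractalkine, a membrane-tethered chemokine of neurons, and Cx3cr1 (ENSMUSG00000052336; chromosome 9, 119901616 to 120069879) its receptor on macrophages. Cx3cl1 ran through 8.0, 15.5 and 58.4 CPM in controls and 10.8, 19.1 and 30.9 in DAAO. Control 2 stood well above the other controls, and the log2 fold change was -0.06 ± 0.48 with it (edgeR adjusted p = 0.991) and 0.56 without it. Cx3cr1 ran through 3.18, 9.68 and 22.6 CPM in controls and 7.68, 14.9 and 27.3 in DAAO. DAAO 1, 2 and 3 and control 2 were high and the other 8 libraries were at most 12.3, so the groups overlapped (0.65 ± 0.42, edgeR adjusted p = 0.655). Xcl1 and Xcr1, a ligand and receptor of cross-presenting dendritic cells, were not tested, with 51 and 53 counts over the 12 libraries.

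All 4 tested CC receptors had positive differences, and 0 passed. Ccr10 and Ccr2 had the highest levels per kilobase of these receptors, 1.32 and 1.14 CPM per kb over all libraries. Ccr10 ran through 1.05, 2.07 and 3.18 CPM in controls and 1.34, 2.56 and 2.94 in DAAO (0.12 ± 0.38, edgeR adjusted p = 0.965). Ccr2, the receptor of Ccl2, ran through 3.51, 6.78 and 10.9 CPM in controls and 5.39, 6.28 and 14.6 in DAAO. Its medians differed little, 2 of 6 DAAO values exceeded the control median, and the fold change was 0.25 ± 0.33 (edgeR adjusted p = 0.887). Ccr1 had 0.38 ± 0.95 (edgeR adjusted p = 0.955), and -0.59 without DAAO 3. The other 6 CC receptors had at most 69 counts each over the 12 libraries and were not tested.

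Cxcr4 (ENSMUSG00000045382; chromosome 1, 128588199 to 128592293) was the receptor with the highest level per kilobase outside the atypical group, 8.63 CPM per kb in controls and 9.15 in DAAO. Its CPM ran through 12.3, 15.4 and 19.6 in controls and 13, 15.3 and 21.8 in DAAO. The groups covered the same range, and the 95% interval of the fold change, from -0.29 to 0.46, lay within 2-fold. Cxcr6 had 0.361 ± 0.526 CPM in controls and 0.711 ± 0.741 in DAAO (SD, n = 6), a difference of 0.94 ± 1.14 (edgeR adjusted p = 0.874).

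The 3 tested atypical receptors all had negative differences, and 0 passed. Ackr1 (ENSMUSG00000037872; chromosome 1, 173331886 to 173333750), which binds inflammatory chemokines on venular endothelium, had the highest level per kilobase of the family, 71.8 ± 22.7 CPM per kb in controls and 62.1 ± 20.4 in DAAO. That is 37.4% of the summed level per kilobase of the 31 genes. Its CPM ran through 46.6, 104 and 130 in controls and 53.6, 86.5 and 132 in DAAO, and 5 of 6 DAAO values were below the control median (-0.21 ± 0.25, edgeR adjusted p = 0.869). The neuronal gene Cadm3 on the same strand shares 361 of the 1405 exon bases of Ackr1 and had 380 ± 106 and 365 ± 24.5 CPM (SD, n = 6). Reads of these shared bases could belong to either gene, so the level of Ackr1 is uncertain. Endothelial markers had 12 of 12 genes tested and 0 passed, with sums from 187 to 272 CPM in controls and from 158 to 297 in DAAO.

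Ackr3, which scavenges Cxcl12, ran through 7.07, 16.4 and 30.6 CPM in controls and 11.5, 16.5 and 25.7 in DAAO, so the DAAO values lay inside the control range (-0.02 ± 0.31, edgeR adjusted p = 0.995, and 0.070 with limma-voom). Ackr4, which clears Ccl19, Ccl21 and Ccl25, had 0.858 ± 0.502 and 0.619 ± 0.468 CPM (SD, n = 6; difference -0.48 ± 0.78, edgeR adjusted p = 0.911). Ackr2, which clears inflammatory CC chemokines, was not tested. It had 77 counts in 5 controls and 12 counts in 1 DAAO library, and with no filter its difference was -2.70 ± 1.36 (edgeR unadjusted p = 0.0520, adjusted p = 0.314).

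**Figure D3:**
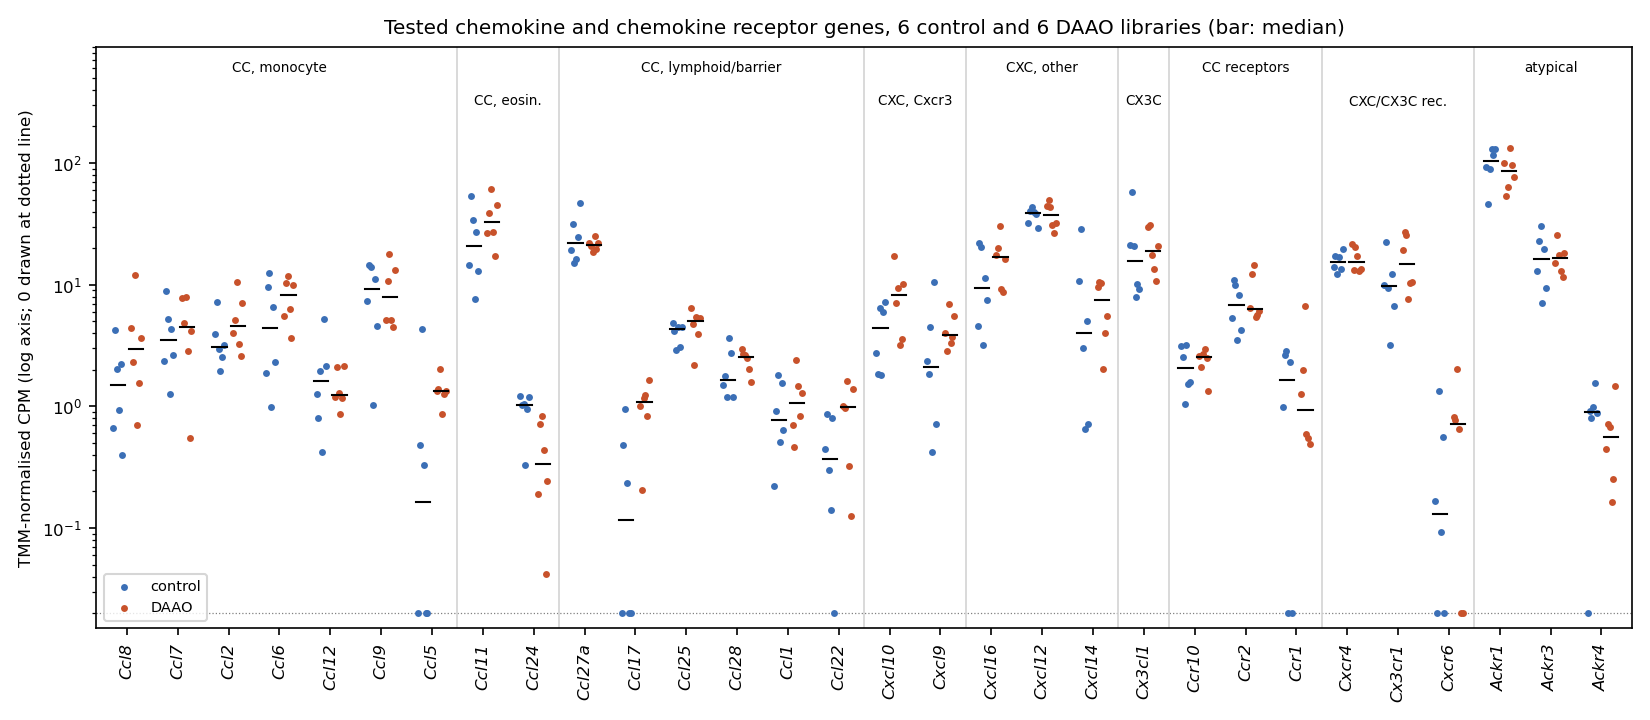
TMM-normalised CPM (log axis, values of 0 drawn on the dotted line) of 30 of the 31 tested chemokine and receptor genes, grouped by role, 1 point per library and a bar at each group's median (n = 6 per group). In every gene drawn the control and DAAO points overlap; Ackr1 reaches 132 CPM and Cxcl12 keeps within 26.8 to 49.8 CPM.

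In order of level per kilobase over the 12 libraries, Ackr1 (66.9 CPM per kb) was followed by Ccl11 (28.2), Ccl27a (9.93) and Cxcr4 (8.89), and Ackr4 was last (0.137). Of the 30 pairs of neighbours in this order, 2 differed by more than the larger SD of the pair: Ackr1 from Ccl11, and Ccl11 from Ccl27a. The order of the other 28 pairs was within the spread between libraries.

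The 35 genes not tested include 28 with 1 to 116 counts over the 12 libraries and 7 with none. Among the 28, 18 had more counts in the DAAO group and 10 had more in the control group. The 7 without counts were Cxcl15, Cxcl3, Cxcr5, both copies of Ccl19, and 1 copy each of Ccl27a and Ccl21b. A count of 0 in all 222219033 counts allows a level of up to 0.0135 CPM, 3 counts of that total, which covers counting error only.

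Libraries differed more than the groups did. Control 4 was the lowest of all 12 libraries in 14 of the 31 tested genes, and DAAO 3 was the highest in 11. In controls 1, 4 and 6 and in DAAO 4 and 5, between 22 and 27 of the 31 genes lay below their median over all libraries. In the other 7 libraries it was 5 to 11 genes. The macrophage marker sums of the first 5 libraries were 231, 113, 234, 440 and 522 CPM, and those of the other 7 ran from 390 to 1943. The spread was wider in controls, with a median coefficient of variation over the 31 genes of 65.6% against 47.0% in DAAO. It was higher in controls for 20 of the 31 genes (64.5%), against 78.8% of all genes tested.

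**Figure D4:**
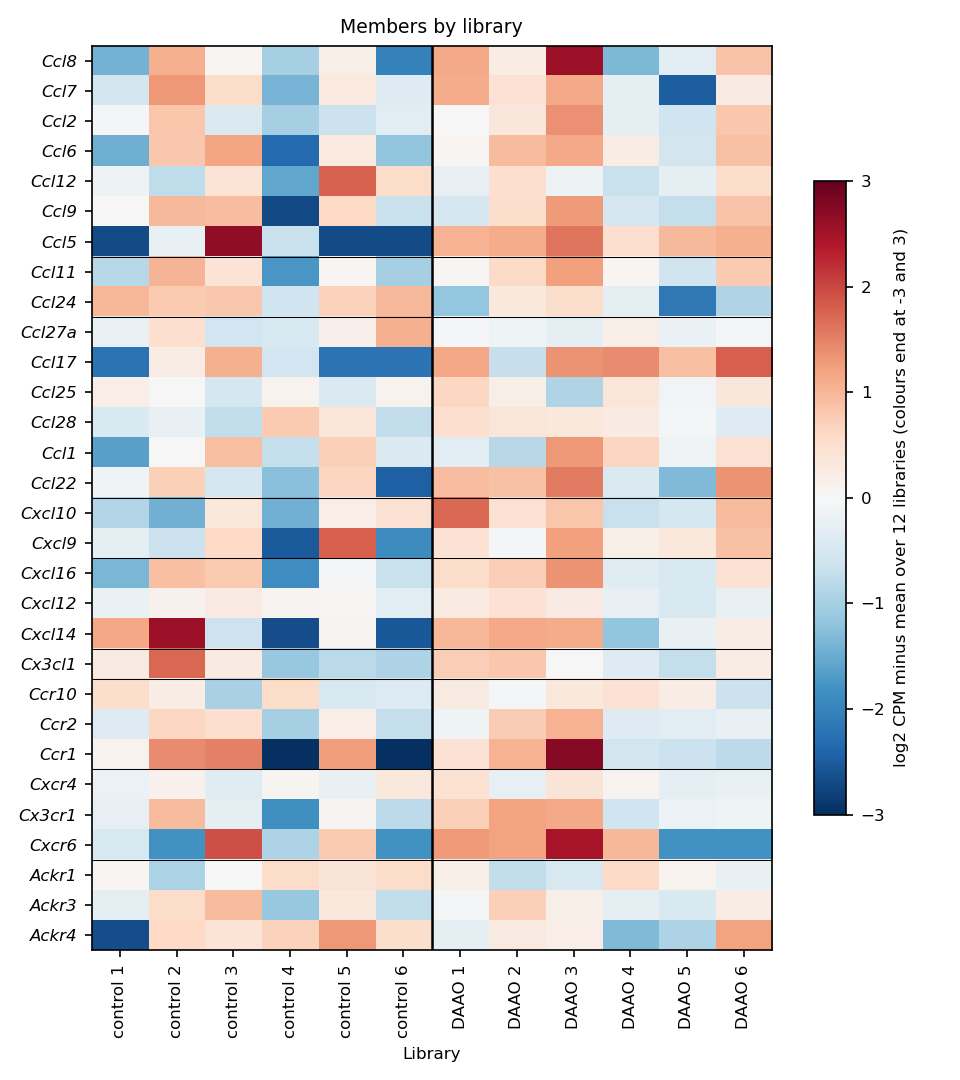
Log2 CPM of 30 of the 31 tested genes (lines, ordered by role) in each of the 12 libraries (columns) minus the gene's mean over all libraries; red is above and blue below, and colours end at -3 and 3. Control 4 is blue in most lines and DAAO 3 red in most, while Cxcl12 and Cxcr4 stay pale throughout.

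Within each group, some genes were ordered among the libraries much as the macrophage marker sum was. Cxcl16 and Ccl6, picked after their values were seen, are given as examples. In controls the 3 libraries with sums of 113 to 234 CPM (controls 1, 4 and 6) had 3.18 to 7.45 CPM of Cxcl16, and the other 3 had 11.5 to 22.2. In DAAO libraries 4 and 5, with sums of 440 and 522 CPM, Cxcl16 was 9.26 and 8.66 CPM, and in the other 4 it was 16.2 to 30.4. Ccl6 was at most 2.32 CPM in controls 1, 4 and 6 and at least 6.57 in controls 2, 3 and 5. Its DAAO values were less clearly ordered, with 6.32 and 3.66 in DAAO 4 and 5 and 5.59 to 11.9 in the other 4. Across the groups the order did not hold. Control 3, with a sum of 482 CPM, had 20.5 CPM of Cxcl16 and 12.4 of Ccl6, above DAAO 5 with a sum of 522. Cx3cr1 and Ccl2 followed the sum in part. Both were lowest in control 4 (3.18 and 1.97 CPM) and high in DAAO 3 (25.6 and 10.5 CPM). Some controls departed from that order: Cx3cr1 was 9.87 CPM in control 1 and 9.49 in control 3, with sums of 231 and 482 CPM. Ccl2 was 3.94 and 3.20 CPM in controls 1 and 6 and 2.95 and 2.53 in controls 3 and 5. These libraries are the points of 1 experiment and share the scaling of their counts, and no test was made.

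**Figure D5:**
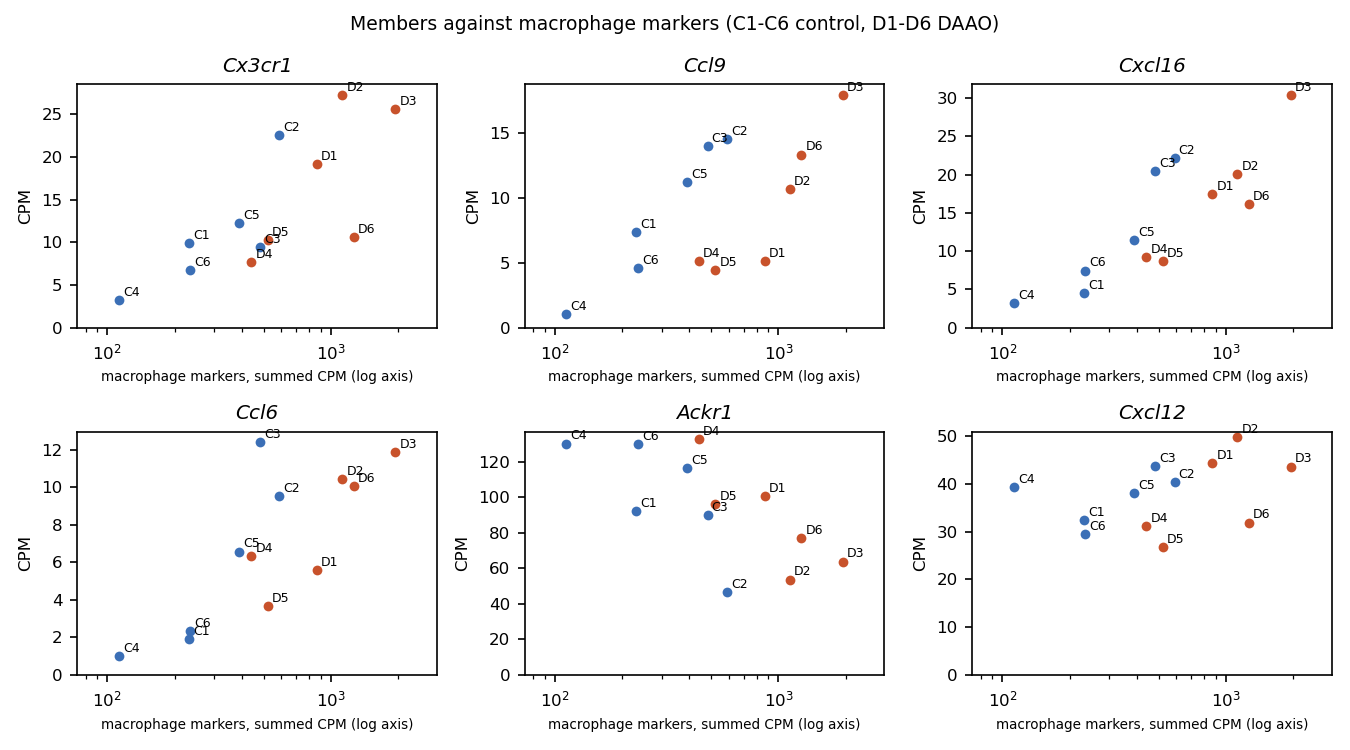
CPM of 6 genes (vertical axis, linear from 0) against the summed CPM of 14 macrophage markers (horizontal log axis), 1 point per library, C1 to C6 for controls in blue and D1 to D6 for DAAO in orange. Cx3cr1, Ccl9, Cxcl16 and Ccl6 are lowest in C4 and high in D3, whereas Cxcl12 stays between 26.8 and 49.8 CPM and Ackr1 is lowest in C2 (46.6 CPM).

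Genes that act around the chemokines were described from lists of signalling molecules, inducers, proteases and adhesion molecules. Of the receptor signalling and desensitisation genes, 31 were tested and 0 passed in either direction. The smallest p-values were those of Gnai1, a Gi protein alpha subunit, at 146 ± 24.6 and 104 ± 9.19 CPM (log2 fold change -0.50, edgeR adjusted p = 0.0793), and Pik3r5, the regulatory subunit of the kinase downstream of the receptors, at 2.69 ± 1.43 and 6.39 ± 1.69 (SD, n = 6; 1.24, adjusted p = 0.150). Of 24 tested inducers of chemokines, 1 passed, against 0.506% of all genes tested called higher: Jun, a subunit of AP-1, rose from 103 ± 12.6 to 157 ± 7.84 CPM (0.62 ± 0.10, edgeR adjusted p = 0.00789) and was above the control median in 6 of 6 DAAO libraries. The median log2 fold change over these 24 was 0.30, and 7 had an unadjusted p under 0.05, against 10.3% of all genes tested.

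Of 8 tested proteases that shed or trim chemokines, 2 rose, against 0.506% of all genes tested, and none fell. Mmp12, the macrophage elastase, rose from 0.279 ± 0.321 to 9.77 ± 6.36 CPM (log2 fold change 5.15 ± 0.83, edgeR adjusted p = 0.00854). The controls held 29 Mmp12 counts in all and at most 0.657 CPM each. Mmp12 passed the filter through the DAAO group only, so its fold stands on a control level near the floor. Mmp14, a membrane-bound metalloproteinase, rose from 43.3 ± 8.85 to 83.8 ± 24.8 CPM (0.95 ± 0.19, edgeR adjusted p = 0.0254; SD, n = 6). Of 13 tested adhesion genes, 1 rose, against 0.506% of all genes tested, and none fell. It was F11r, a junctional adhesion molecule, from 7.61 ± 0.833 to 13 ± 1.92 CPM (0.77 ± 0.17, edgeR adjusted p = 0.0441). Of 8 tested chemokine-related genes outside the rule, such as Cmklr1 and Cxcl11, 0 passed (log2 fold change 0.74 and -0.61, edgeR adjusted p = 0.647 and 0.738). The symbol of Cxcl11 matches the rule, but the gene was not among the table's protein-coding genes. Among dendritic cell markers, Itgax, the integrin CD11c that macrophages also carry, rose from 0.765 ± 0.557 to 7.86 ± 3.86 CPM (edgeR adjusted p = 0.00217). Its controls ran from 0.162 to 1.77 CPM, so not all of them reached the level of the filter, whereas all DAAO libraries did. It was 1 of 7 dendritic markers tested, against 0.506% of all genes tested called higher, and the other 6 did not pass.

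Markers of the other cells a ganglion sample can hold were counted in the same way. None passed among 6 monocyte, 8 neutrophil, 3 B cell, 6 mast cell, 10 fibroblast, 7 satellite glia, 9 oligodendrocyte, 6 astrocyte, 7 microglia, 8 skeletal muscle, 2 adipocyte and 6 erythroid markers tested. Of 10 pericyte and smooth muscle markers, Cspg4, the NG2 proteoglycan, rose from 15.6 ± 2.43 to 26.0 ± 4.67 CPM (SD, n = 6; edgeR adjusted p = 0.0335). Of 12 Schwann cell markers, S100b fell from 710 ± 155 to 445 ± 53.4 CPM (edgeR adjusted p = 0.0414). Of 13 sensory neuron markers, Snap25, a synaptic vesicle fusion protein, fell from 1276 ± 138 to 836 ± 148 CPM (edgeR adjusted p = 0.0498). Cspg4, S100b and Snap25 were each the only gene of their list to pass. Over all genes tested 0.506% were called higher in DAAO and 0.247% lower. The part of these cells in the chemokine values was not tested.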

How the data were processed

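Total RNA of dorsal root ganglia was sequenced as paired reads, per the labels' protocols, and the authors deposited whole-number counts per gene for 6 control and 6 DAAO libraries. The submitters' processing notes list DESeq2 1.20.0, HISAT2 2.0.5 and FastQC, with builds mm10 and GRCm38. The program that counted reads, its use of strand and of reads with several matches, and the annotation were not given in the sources used here. Exon lengths of all 31 tested family genes equalled those of GENCODE M21, which was used for shared exon bases.

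Genes were filtered with filterByExpr by group (minimum count 10, minimum total 15), scaled by TMM and tested with the robust quasi-likelihood test of edgeR 4.0.16 under R 4.3.3. The test was two-sided, p-values were adjusted by Benjamini-Hochberg over 17002 genes, and the threshold was 0.05. SE was taken as the absolute log2 fold change over the root of the F statistic. CPM per kb is CPM divided by the table's gene length. The 12 libraries all differed by more than sampling noise (smallest chi-square per degree of freedom 19.5 over 66 pairs).

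The genes, lists and alternatives were chosen with earlier results of these data known, and Ccl1, Ccl27b, Cxcl11 and Ccr1l1 were assigned to their lists after the table was seen. Named with low, median and high values were genes with an unadjusted p under 0.05 and the 2 of highest level per kb among CC ligands, CXC ligands, CX3C and XC ligands, CC receptors, the other signalling receptors, and atypical receptors. Further genes given with such values or with counts, such as Ccl2, Ccl5 and Ccl3, were chosen after their values were seen. From other lists, genes that passed or otherwise the 2 smallest p-values were named. Cell type lists covered macrophages, monocytes, neutrophils, T and NK cells, B cells, dendritic, mast, endothelial, mural, fibroblast, Schwann, satellite, neuronal, oligodendrocyte, astrocyte, microglia, muscle, fat and erythroid markers. As alternatives, RLE and upper-quartile factors, DESeq2 1.42.0, limma-voom 3.58.1 with and without sample weights, other filters, no robust fit, the replicate number as a block, each library left out, controls 2 and 6 left out, and a prior count of 0.5 in place of 2 for log2 CPM were run. A filter with a minimum count of 3 was added after seeing the data. The values of 1 tested gene are not reported here, though it is in the counts.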

Additional observations from a re-analysis of the deposited data

Results flagged for a closer look

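In groups of 6 libraries, the gap between an extreme library and its nearest neighbour was compared with the group's range for each of the 31 tested genes. It exceeded Dixon's 95% critical value in 8 of 62 groups. That value flags about 1 in 20 groups only when values are normally distributed and groups independent. The CPM used here were not log-transformed and the genes share libraries, so the 8 cannot be set against that rate. Control 2 stood far above the other controls in 3 genes: Ccl2 at 7.28 CPM (next 3.94), Cx3cl1 at 58.4 CPM (next 21.4) and Cxcl14 at 28.8 CPM (next 10.8). DAAO 3, which had the highest macrophage marker sum, stood far above the other DAAO libraries in Ccl8 at 12.1 CPM (next 4.44) and Ccr1 at 6.67 CPM (next 2.0). Ccl5 was high in control 3 at 4.29 CPM (next 0.485), and Ccl12 in control 5 at 5.20 CPM (next 2.16). Ccl24 was low in control 4 at 0.328 CPM, with the next control at 0.960. The cause of these gaps was not tested.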

How the results depend on the processing

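No gene of the family that was tested with all libraries passed under any alternative run. With the genes a changed filter let in, the count called higher was 0 throughout except without control 2 and without controls 2 and 6, where it was 1 (Ccl3, then at 0 counts in every control), so leaving out single libraries gave 0 to 1. DESeq2 gave no adjusted p for 6 of the 31. Over all genes tested, 86 were called higher with edgeR, 217 with DESeq2, 178 with limma-voom with sample weights and 330 without controls 2 and 6, and 47 to 204 with single libraries left out. Called lower were 42, 145, 129 and 318, and 14 to 118 with single libraries left out. Of 707 values of the 31 genes under alternatives, 663 kept their sign and 44 did not, and 18 genes kept it throughout; the cause of the changes was not tested.

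The sign turned with limma-voom in Ackr3 (0.070), Ccl7 (-0.11), Cx3cl1 (0.17), Cxcl12 (-0.016) and Cxcl14 (0.62). With sample weights it turned in Ackr4 (0.49), Ccl27a (0.17), Cx3cl1 (0.22), Cxcl12 (-0.074), Cxcl14 (0.70) and Cxcr6 (-0.62). Without controls 2 and 6 it turned in Ccl27a (0.18), Cx3cl1 (0.44), Cxcl12 (-0.017) and Cxcl14 (0.54). With single libraries left out the ranges that crossed 0 were -0.18 to 0.22 for Ackr3, -0.64 to 0.14 for Ccl12, -0.046 to 0.56 for Ccl7, -0.19 to 0.31 for Ccl9, -0.59 to 0.68 for Ccr1, -0.039 to 0.26 for Ccr10, -0.23 to 0.56 for Cx3cl1, -0.064 to 0.11 for Cxcl12, -0.48 to 0.80 for Cxcl14 and -0.0082 to 0.15 for Cxcr4.

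The replicate numbers were not taken as pairs, since the labels name no pairing. Of the same-numbered pairs 2 of 6 correlated over 0.1, and 3 of 6 controls correlated best with their own number. These values do not settle whether the numbers are pairs. With the replicate block, 0 of the 31 were called, 144 of all genes were called higher, and Ackr3 (0.10), Cx3cl1 (0.21) and Cxcl14 (0.60) changed sign. At an unadjusted p under 0.05 in edgeR there were then 4 of the 31 (Ccl5, Cx3cr1, Cxcl10 and Cxcl16), against 1751 of all 17002 genes tested. Depth limits the 28 genes with 1 to 116 counts, for which only large differences could have been detected.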
